A study of Mus musculus with 8 samples.

Results

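The CCN proteins and thrombospondins are secreted matricellular proteins, which bind the extracellular matrix, integrins and growth factors and change how cells respond to them without building the matrix itself. Their N6-methyladenosine (m6A) peaks were examined in mouse primary vascular smooth muscle cells (VSMCs). The genes were chosen by name and number 8 of the 55450 in the annotation: Ccn1 (Cyr61), Ccn2 (Ctgf), Ccn3 (Nov), Ccn4 (Wisp1), Ccn5 (Wisp2), Thbs1, Thbs2 and Thbs3. A peak was counted for a gene when its summit, the position of highest signal in the peak, lay in an annotated exon of that gene (GENCODE M21, GRCm38). By this rule 54 of the 37799 exonic summits in the peak lists belonged to these genes, 29 to CCN genes and 25 to thrombospondin genes.

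The cells came from the descending aorta of adult C57BL/6J mice, were freed of adventitia and endothelium, and were grown in culture before lentiviral transduction. The control group (shCTR) received a vector with GFP and a hairpin against a plant microRNA sequence, and the knockdown group (shMettl14) received a single hairpin against Mettl14, a subunit of the complex that writes m6A. Both groups thus carried virus and a hairpin, and 1 Mettl14 hairpin sequence stands for the knockdown. Fragmented RNA was enriched with an antibody to m6A (IP). Each of the 4 IP samples, replicates A and B of each shRNA, had a peak list called against its own input. Nothing in the labels says whether A and B were separate cultures or animals, so the p-values below measure only the spread between these samples, which may be technical.

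m6A is placed on mRNA by the METTL3 and METTL14 enzyme complex within a short sequence called DRACH, mostly in long internal exons and in last exons near the stop codon, and reader proteins that bind it can change splicing, translation and decay. Ccn1 and Ccn2 are fast-responding targets of the YAP, TAZ and SRF transcription factors in stretched or growth factor-treated smooth muscle. Thbs1 and Thbs2 form trimers that bind CD47 and CD36, and Thbs1 activates latent TGF-beta. In arteries these genes are known for their part in injury repair and neointima formation.

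The lists held 8655 to 13675 summits each, with a median of 13 to 16 IP fragments at a summit. The fragment numbers were recovered from the deposited fold enrichment and p-value of each peak. The paper gives the same depth for every sample, and the number of reads behind each list is unknown. The lowest background recovered was 0.0752 and 0.0696 fragments in shCTR A and B and 0.0614 and 0.0418 in shMettl14 A and B. shMettl14 A was the longest list and had the shortest minimum interval, 97 bp, against 112 bp in shMettl14 B and 141 and 170 bp in shCTR A and B. No list had a summit in Mettl14, and a peak list gives no transcript level. The knockdown therefore has no check here, and an absent peak cannot be told apart from low RNA. Of 8 smooth muscle markers only Myh11 and Lmod1 had a summit in any list, while Acta2, Tagln and Cnn1 had none. Of 5 endothelial markers 3 had a summit, of 5 leukocyte markers 1 and of 4 fibroblast markers 1.

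m6A peaks were found in 6 of the 8 genes, and the same 6 had them in every list. Over all 21622 coding genes, 23.8% had an exonic summit in any list. Thbs1 had 21 summits over the 4 lists, and 3.64% of the 6075 genes with an exonic summit had at least as many. Ccn1 and Ccn4 had 9 each, Ccn2 had 7, and Ccn5 and Thbs2 had 4 each, which is the median over genes with a summit. Ccn3, which restrains smooth muscle growth, and Thbs3, a thrombospondin that forms pentamers, had none in any list.

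The shCTR lists held 13 (A) and 11 (B) of the summits and the shMettl14 lists 19 (A) and 11 (B). These are means of 12 ± 1.41 and 15 ± 5.66 (SD, n = 2 each), which overlapped (exact permutation test, two-sided p = 1, where 2 lists against 2 cannot give less than 0.333). The higher mean came from shMettl14 A alone. That list held 9 of the Thbs1 summits and 4 of the Ccn1 summits, and without it the difference was -1. When distinct intervals were counted in place of summits it was -0.5. As a share of all exonic summits of a list they made up 0.134%, 0.142%, 0.157% and 0.133% in the order shCTR A, B, shMettl14 A, B, which is the order of all values below that are given by list.

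**Figure D1:**
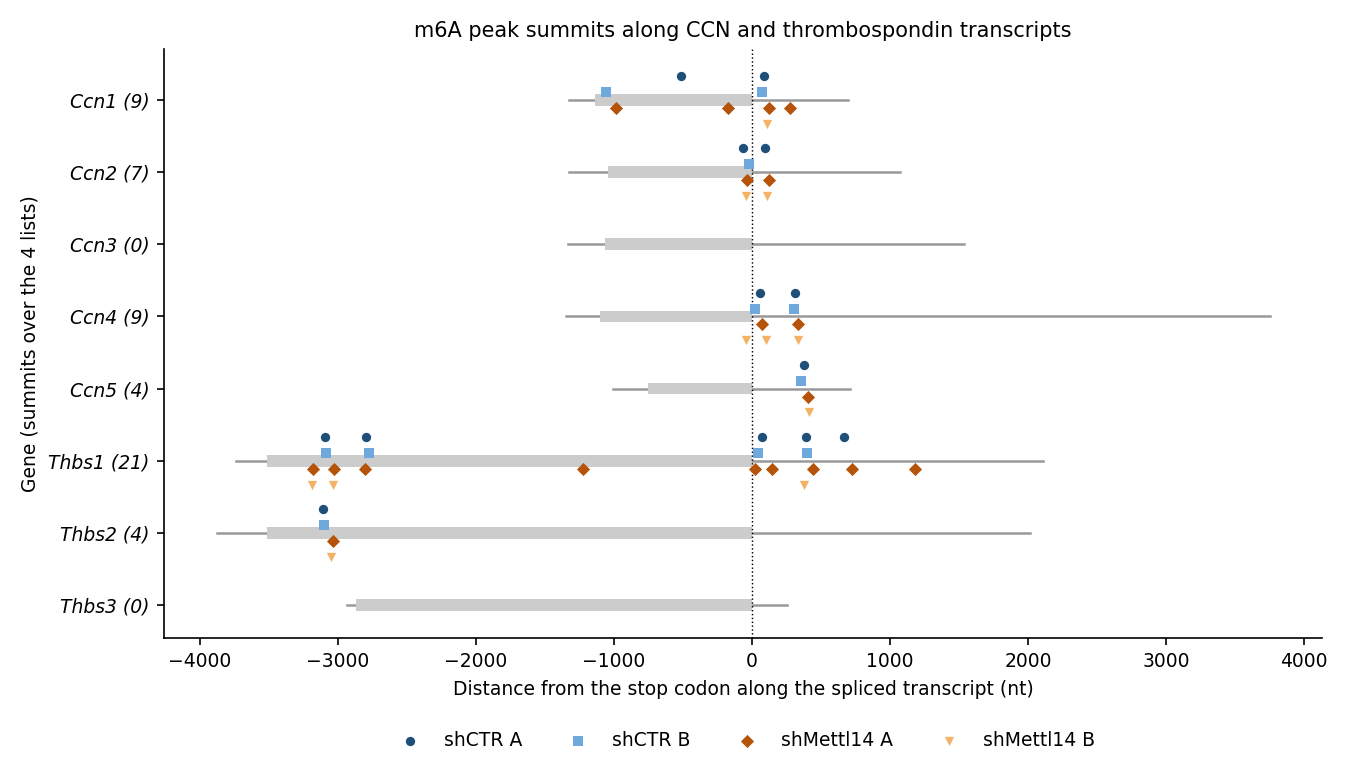
Summits along the spliced transcript of each gene, as distance from the stop codon in nt (negative is upstream). Grey bars are coding sequence, grey lines are UTRs, and the rows of points from top to bottom are shCTR A, shCTR B, shMettl14 A and shMettl14 B. Of the 54 summits 37 lie in last exons, those of Thbs2 lie only near the start of its coding sequence, and Ccn3 and Thbs3 have none.

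To determine where in the transcripts the peaks lay, each summit was placed on the coding transcript of its gene. In the CCN genes the peaks gathered in the last exon, mostly past the stop codon, and only Ccn2 had a summit before it in every list. In the thrombospondins they lay in a long exon near the start of the coding sequence and, in Thbs1 alone, in the 3′ UTR and in exons 5 and 15. Over the 54 summits, 31 (57.4%) lay in a 3′ UTR, 23 (42.6%) in coding sequence and 0 in a 5′ UTR. Over all 34573 summits placed in the same way, 31.5% lay in 3′ UTRs and 65.9% in coding sequence. Last exons held 68.5% of the summits of these genes and 64.2% of all. Within 200 nt of the stop codon lay 21 (38.9%), against 26.4% of all. The members were picked by name and are few, so these shares are given as a description with no test.

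By list, the share within 200 nt of the stop codon was 38.5% and 36.4% in shCTR against 36.8% and 45.5% in shMettl14. The means were 37.4% ± 1.48 for shCTR and 41.1% ± 6.09 for shMettl14 (SD, n = 2), so the difference of 3.74 percentage points was smaller than the spread between the shMettl14 lists. Its sign depended on the window. Within 100 nt it was -20.4 points and within 400 nt -2.54 points.

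The 54 summits formed 18 clusters when summits less than 100 nt apart along a transcript were joined. Of these, 8 had a summit in all 4 lists. The DRACH site nearest to the median summit of each is shown here, because these clusters had an exonic summit in every list. The median pools lists whose summits lay apart, so a site near it need not lie near the summit of each list. DRACH stands for 5 bases, A, G or T, then A or G, then AC, then A, C or T, and was searched on the transcript strand only. Each stretch is printed 5′ to 3′ with the motif in capitals, from the GENCODE transcript and with GRCm38 positions.
Ccn1 3′ UTR (chr3:145647532-145647556, minus strand): gggtatttcaAAACTgccaaggggc
Ccn2 end of the coding sequence (chr10:24597550-24597574, plus strand): ctggggacaaTGACAtctttgagtc
Ccn4 past the stop codon (chr15:66919505-66919529, plus strand): ttgtggtccaGGACTtcacaattga
Ccn4 further 3′ UTR (chr15:66919777-66919801, plus strand): atcagctgaaGAACCagtatcatga
Ccn5 3′ UTR (chr2:163832809-163832833, plus strand): gtcccttcttGGACTtctatgtgct
Thbs1 exon 3 (chr2:118113378-118113402, plus strand): ttgttcaagaGGACCgggctcaact
Thbs1 3′ UTR (chr2:118125411-118125435, plus strand): aaggaaaaaaTGACTcactagaact
Thbs2 exon 3 (chr17:14689887-14689911, minus strand): tgggcctggcTGACTcccagtggaa

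In Ccn4, Ccn5, Thbs1 3′ UTR, Ccn2 and Thbs2 the motif lay 0.5 to 13.5 nt from the median summit, and in Ccn1 and Thbs1 exon 3 it lay 27.5 and 35.5 nt downstream of it. In Thbs1 exon 3 the motif lay at coding position 488, with summits at 423 and 427 in shCTR and at 483 and 478 in shMettl14. In Thbs2 it lay at coding position 437, between summits at 407 and 414 in shCTR and at 484 and 464 in shMettl14. The Ccn4 site next to the stop codon and the Ccn5 site were both GGACT, and the nearest motif of Thbs1 exon 3 was GGACC. Within 50 nt of a summit, 53 of the 54 summits had a DRACH match (98.1%), against 95.2% of all 34573 summits. GGAC followed by A, C or T was found beside 25 of the 54 (46.3%) and beside 50.9% of all, and GGACT beside 20.4% and 21.0%. A match near a summit is a description of the letters there and does not show that the base is methylated.

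Ccn1 (ENSMUSG00000028195.4, chromosome 3, 145646976 to 145649981, minus strand) encodes an integrin ligand induced early after growth factor treatment. Its main peak lay 70 to 124 nt past the stop codon and held 131 and 125 IP fragments in the shCTR lists and 89 and 99 in the shMettl14 lists. The median summit also held fewer fragments in shMettl14 (14 and 13) than in shCTR (16 in both), and after scaling the groups overlapped. These are among the highest fragment numbers anywhere in the lists, between the 99.86th and the 99.94th percentile of all summits of the same list. The fold enrichments there, IP over local background, were 8.40, 9.77, 9.12 and 11.56 in the same order, which is only the 56.3rd to the 76.8th percentile. The local background was also high, 14.72, 11.90, 8.87 and 7.65 fragments, where the median over all summits was 0.620 to 0.970 per list. The remaining Ccn1 summits held 25 to 42 fragments and were not found in every list, 2 of them in exon 2, 1 in exon 4 and 2 elsewhere in the last exon.

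Ccn2 (ENSMUSG00000019997.11, chromosome 10, 24595442 to 24598683, plus strand) encodes connective tissue growth factor, a mediator of fibrosis. It had a pair of summits astride the stop codon. The first lay 19 to 62 nt before it and held 69 and 68 IP fragments in shCTR against 48 and 37 in shMettl14. The other lay 94 to 125 nt past it, with 79, 40 and 46 fragments in shCTR A, shMettl14 A and shMettl14 B, and shCTR B listed no separate summit there. These numbers are not scaled for the lists at large. After scaling, the change at the Ccn2 last exon was -0.37 ± 0.23 (log2, SE). Fold enrichments at both summits were low, from 4.20 to 6.78, over backgrounds of 5.93 to 13.75 fragments. An annotated gene, Gm15270, overlaps Ccn2, but each summit lay in exons of Ccn2 only.

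Ccn4 (ENSMUSG00000005124.10, chromosome 15, 66891320 to 66923201, plus strand) encodes a WNT1-inducible member of the family, and its peaks had the highest fold enrichments of the family. The stronger of its clusters lay 306 to 336 nt past the stop codon with 62 and 41 IP fragments in shCTR against 39 and 33 in shMettl14. These numbers are not scaled for the lists at large, and after scaling the groups overlapped. Fold enrichment at this cluster was 18.4, 16.8, 9.62 and 16.7. The list shMettl14 A stood apart from the others, which lay close together, with a background of 3.16 fragments against 1.03 to 2.43 in the other lists. A weaker cluster closer to the stop codon, from 46 nt before it to 102 nt past it, held 28 and 25 fragments in the shCTR lists, 30 in shMettl14 A, and summits of 11 and 13 in shMettl14 B.

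Ccn5 (ENSMUSG00000027656.7, chromosome 2, 163820861 to 163833146, plus strand) encodes the member that lacks the C-terminal domain of the others and restrains smooth muscle proliferation. It had a single summit per list, 354 to 412 nt past the stop codon, with 35, 22, 23 and 19 fragments. Its fold enrichment, 5.13, 4.93, 4.59 and 5.75, lay at percentiles from 9.41 to 19.5 of all summits, near the low end of the family. In all of Ccn1 to Ccn4, the stop codon lies 294 to 300 nt into the last exon, and in Ccn5 218 nt into it.

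Thbs1 (ENSMUSG00000040152.8, chromosome 2, 118111876 to 118127133, plus strand) had the most summits. In exon 3, which is 560 nt long and codes for the N-terminal part of the protein, the highest summit held 108 and 116 IP fragments in shCTR against 81 and 75 in shMettl14. A stretch of 3′ UTR from 375 to 444 nt after the stop codon held 128 and 127 against 87 and 88. Both places ranked above the 99.5th percentile of fragments in every list. The numbers are not scaled for the lists at large. After scaling, the changes were -0.25 ± 0.23 for exon 3 and -0.27 ± 0.23 for the last exon (log2, SE). Fold enrichment was moderate, 6.01 to 8.02 in exon 3 and 6.46 to 8.55 in the 3′ UTR, over backgrounds of 9.10 to 18.76 fragments. The last exon also held summits of 32 to 105 fragments from 21 to 1182 nt past the stop codon, none of them in all 4 lists, and the one of 105 fragments was in shCTR A. An annotated gene, Gm29233, overlaps the locus, and no Thbs1 summit lay in its exons.

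Thbs2 (ENSMUSG00000023885.9, chromosome 17, 14665500 to 14694235, minus strand), an inhibitor of angiogenesis, had 1 summit per list, in exon 3 of 557 nt. It held 18, 16, 17 and 14 IP fragments, close to the median summit of each list, with a fold enrichment of 7.74, 6.11, 8.91 and 8.73. Its last exon, 2021 nt long and with 3 GGAC-type sites within 400 nt of the stop codon, as many as in Thbs1, had no summit in any list.

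**Figure D2:**
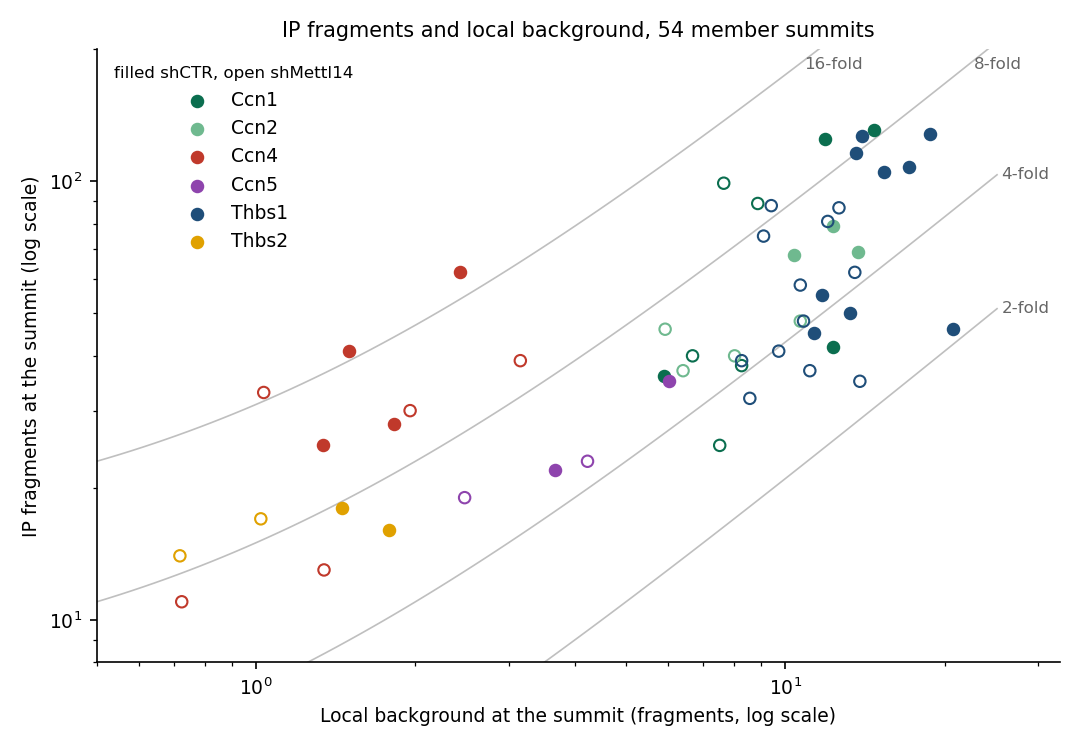
IP fragments at each of the 54 summits against the local background at the same summit, both in fragments on log scales, filled for shCTR and open for shMettl14. Grey lines join points of equal fold enrichment (2, 4, 8 and 16). Thbs1, Ccn1 and Ccn2 lie at high fragment numbers and high background, Ccn4 lies near the 16-fold line in 3 of 4 lists at its stronger cluster, and Thbs2 has 14 to 18 fragments over a background of 0.718 to 1.78.

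The exon 3 summits with most fragments in Thbs1 and Thbs2 were at nearby aligned places. When the coding sequences were aligned codon by codon (63.0% of the encoded residues and 65.3% of the bases identical over 1160 aligned codons), the Thbs1 summit at coding position 423 in shCTR A corresponded to position 411 of Thbs2, 4 nt from the Thbs2 summit at 407. The distance was 1 nt in shCTR B, 13 nt in shMettl14 A and 2 nt in shMettl14 B. The further Thbs1 summits of the shMettl14 lists, at coding positions 332 and 322, had no Thbs2 summit near them. Exon 3 itself was less alike, with 47.7% of aligned bases identical. Of its 10 DRACH sites in Thbs1 and 16 in Thbs2, 3 coincided in the alignment.

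The genes without a peak differed from the others in some features of their annotated transcripts and not in others. Thbs3 has no exon longer than 400 nt in its coding transcript, which was so for 0.797% of the 5144 coding genes with an exonic summit and for 18.8% of the 16478 without one. Its last exon is 312 nt long, against 930 to 4047 nt in the 7 other genes. Ccn3 has a last exon of 1831 nt but no GGAC followed by A, C or T within 400 nt of its stop codon, as was so for 6.26% of coding genes with a summit and 12.6% without. The 6 genes with peaks had 3 to 7 such sites there. Thbs3 had 3. The feature named differs between Thbs3 and Ccn3. Transcript levels were not analysed here, and neither their part nor that of these features in the absence of peaks was tested.

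Short exons held 7 of the 54 summits (13.0%), where exons of up to 400 nt held 2.15% of all. They lay in exons 2 and 4 of Ccn1 and exons 5 and 15 of Thbs1, 160 to 215 nt long. All had low fold enrichment, 3.05 to 5.36, at the 0.179th to the 13.6th percentile, although they held 25 to 55 fragments.

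To compare the lists, intervals that shared at least 1 bp were merged into 11361 regions. Of these, 11 held a summit of these genes. In all 4 lists were 7 of them, where 43.4% of all regions were, 2 were in 3 lists (Thbs1 exon 5, and Ccn1 exon 2 with an exonic summit in 2 of them) and 2 were in 1 list (Ccn1 exon 4 in shCTR A, Thbs1 exon 15 in shMettl14 A), where 29.1% of all were in a single list. None was in both lists of an shRNA and neither list of the other, which was so for 1.71% of all regions on the shCTR side and 1.79% on the shMettl14 side. The 7 regions in all 4 lists were the last exons of Ccn1, Ccn2, Ccn4, Ccn5 and Thbs1 and exon 3 of Thbs1 and Thbs2. Each also overlapped the authors' deposited consensus intervals of both shRNAs.

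The order of the 7 regions by percentile of fold enrichment within the list was led by Ccn4, at a mean of 89.7 ± 8.33 (SD over the 4 lists). Ccn1 followed at 66.6 ± 8.40, and its range over the lists did not overlap that of Ccn4. Then came Thbs2 exon 3 at 48.8 ± 17.6, the Thbs1 last exon at 44.8 ± 11.9, Thbs1 exon 3 at 37.8 ± 11.5, Ccn2 at 22.7 ± 10.5 and Ccn5 at 12.8 ± 4.70. From Ccn1 down, the ranges of neighbours in this order overlapped. The exon 3 region of Thbs1 ranked below its last exon in all 4 lists, although their means were closer than their SDs.

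By IP fragments the order was different. Ccn1 led at the 99.90th percentile, with the Thbs1 last exon at 99.88 overlapping it, then Thbs1 exon 3 at 99.69, Ccn2 at 97.2 ± 1.12, Ccn4 at 92.3 ± 3.44, Ccn5 at 74.0 ± 8.42 and Thbs2 at 54.6 ± 4.65. Between Thbs2, Ccn5 and Ccn4 the ranges did not overlap. Local background put Thbs1, Ccn1 and Ccn2 above the 99th percentile in every list, Ccn5 at a mean of 94.0, Ccn4 at 78.0 ± 10.7 and Thbs2 at 62.8 ± 9.41. The background is the larger of local and genome-wide input averages, so it follows the input reads around a summit and is not a measurement of transcript level.

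**Figure D3:**
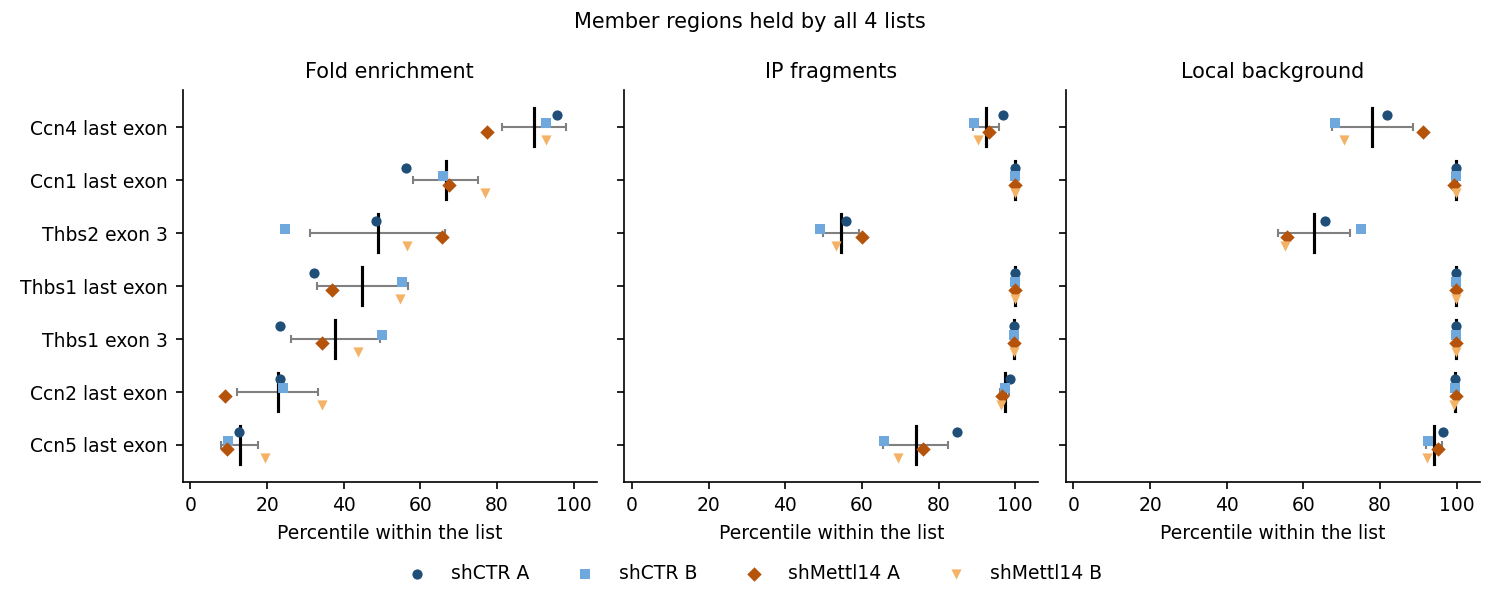
Percentile within its list of the highest fold enrichment, of the IP fragments at the highest summit and of the local background there, for the 7 regions of these genes found in all 4 lists. Points are lists, black lines are means over the 4 lists and grey bars their SD. Ccn4 leads by fold enrichment (mean 89.7), and Ccn1, Thbs1 and Ccn2 lead by fragments and by background.

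Whether Mettl14 knockdown changed these peaks was tested with limma on each measure, over all 4929 regions found in all 4 lists. None of the 7 regions passed an adjusted p of 0.05 for rank of fold enrichment, for IP fragments or for background, and 0% of the 4929 regions did so for any of the 3. At an unadjusted p under 0.05 the counts were 0 of 7 for each measure, where 4.93%, 4.44% and 5.21% of all regions passed. Fisher's exact test on the fragments summed over A and B, the test named in the study's methods, gave 0 of 7 at an unadjusted p under 0.05 (smallest p 0.0697, Ccn2), where 2.56% of all regions passed, and 0 of 7 after adjustment. That test covers counting error only, since it sums the replicates and takes fragments as independent molecules. Fold enrichments were compared as normal scores of their rank within the list and fragments after scaling over all regions, so a loss of m6A shared by all sites would not show.

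By rank, 2 of the 7 regions had a change below 0, where 49.9% of all did. This count depended on single lists and on the measure, being 4 without shCTR A, 1 without shMettl14 A, 5 without shMettl14 B and 5 when -log10 p was ranked. Ccn4 and Thbs2 had the largest changes. The normal score of Ccn4 was 1.32 and 1.17 in shCTR and 0.10 and 1.15 in shMettl14, a change of -0.61 ± 0.52 (SE, limma adjusted p 0.999). The shMettl14 values lay below both shCTR values, as in 15.8% of all regions, but nearly all of the change came from shMettl14 A, and without that list it was -0.09. Thbs2 went the other way, from -0.69 and -1.17 to -0.30 and -0.26, a change of 0.66 ± 0.50 (SE, limma adjusted p 0.999). Its groups did not overlap either, as in 17% of all regions. For the other 5 regions the change in rank lay between -0.13 (Ccn2) and 0.31 (Ccn1), each smaller than its standard error, and the normal scores of the groups overlapped. For Ccn1 the percentiles among all summits of a list, rather than the scores over the 4929 regions, were 56.3 and 65.8 in shCTR and 67.6 and 76.8 in shMettl14.

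In IP fragments, 6 of the 7 regions had a change below 0, where 50.1% of all regions did, and 4 of 7 without shCTR A. The median over the 7 was -0.22 on the log2 scale, and over all regions -0.00025. Ccn2 had the lowest value. Its scaled log2 fragments were 6.09 and 6.01 in shCTR and 5.58 and 5.78 in shMettl14, a change of -0.37 ± 0.23 (SE, limma adjusted p 0.974). These Ccn2 values come from different summits, the one past the stop codon in shCTR A and shMettl14 B and the coding one in shCTR B and shMettl14 A. In shMettl14 A the rank of Ccn2 rests on the summit past the stop codon. The Thbs1 last exon stood at 6.79 and 6.91 against 6.44 and 6.72, a change of -0.27 ± 0.23 (SE, limma adjusted p 0.974). Thbs1 exon 3 stood at 6.54 and 6.78 against 6.34 and 6.49, a change of -0.25 ± 0.23 (SE, limma adjusted p 0.975). In these 3 regions both shMettl14 lists were below both shCTR lists, as in 16.7% of all regions. Both regions of Thbs1 come from the same transcripts and are not independent.

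Ccn1, Ccn4 and Ccn5 also had lower mean fragments after knockdown (changes of -0.18, -0.22 and -0.14), with overlapping groups. Each of these signs turned with 1 list left out, Ccn1 to 0.031 without shMettl14 A, and Ccn4 to 0.0076 and Ccn5 to 0.13 without shCTR A. Thbs2 was the exception, at 3.96 and 3.93 in shCTR and 4.09 and 4.07 in shMettl14. This change of 0.13 ± 0.22 (SE, limma adjusted p 0.985) had no overlap between groups, as in 17.4% of all regions. The raw fragment numbers behind it were 18 and 16 against 17 and 14.

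The local background of 6 of the 7 regions also had a change below 0, with a median of -0.10 on the log2 scale, but without shCTR A only 3 of 7 did. Thbs2 had the lowest value, -0.47 ± 0.32 (SE, limma adjusted p 0.939; -0.26 without shCTR B, where Ccn5 was lowest at -0.39), and was the only region with both shMettl14 lists below both shCTR lists, as in 17.6% of all regions. Ccn4 had the highest value, 0.36 ± 0.46 (SE, limma adjusted p 0.961), which was -0.13 without shMettl14 A and 0.082 without shCTR B. In Thbs2 the higher rank after knockdown thus went with a lower background, and the part of the background in the rank was not tested. In Ccn4 the values come from different summits in shMettl14 A, since the rank rests on the highest fold enrichment (10.5, at the cluster near the stop codon, over a background of 1.95) and the background on the summit with most fragments (3.16, at the cluster further on).

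**Figure D4:**
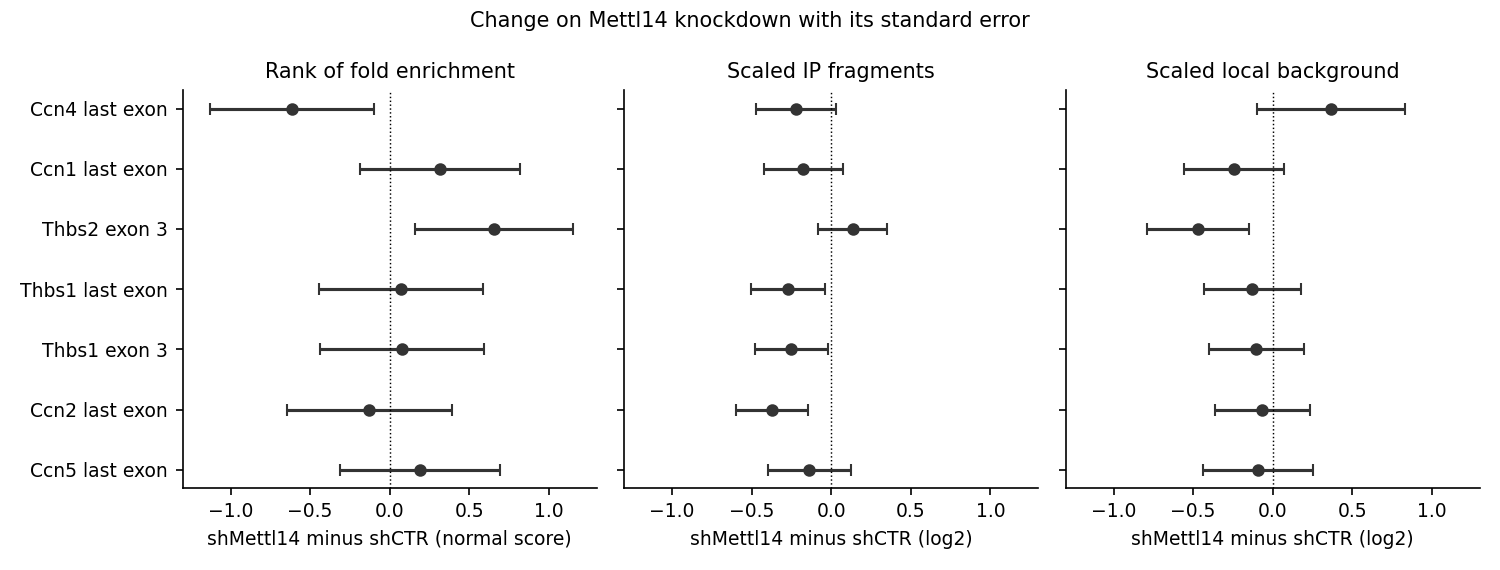
Change from shCTR to shMettl14 for the 7 regions, in normal scores of the rank of fold enrichment and in log2 for scaled IP fragments and scaled local background, with its standard error from limma (2 lists per group). None of the 21 changes passed an adjusted p of 0.05, and 6 of 7 were below 0 for fragments and for background (4 and 3 of 7 without shCTR A).

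The position of the summits moved with the groups, in these genes and in the lists at large. Of the 8 clusters with a summit in every list, Ccn4 and Thbs1 each gave 2. The mean position of the shMettl14 summit with most fragments lay further towards the 3′ end than that of shCTR in 8 of 8. The offset was 1 to 63.5 nt, with a median of 39.75 nt. In 6 of the 8 clusters both shMettl14 summits lay past both shCTR summits. When the summit with the highest fold enrichment was taken instead, a choice made after seeing the data, these counts were 7 and 5. The exception was the Ccn4 cluster near the stop codon, where shMettl14 B had a summit 102 nt past the stop codon (13 fragments, fold enrichment 5.97) and one 46 nt before it (11 fragments, 6.96), and where the offset was 45 nt by fragments and -29 nt by fold enrichment. Without shMettl14 A, 6 of the 8 offsets were above 0, and without shCTR A 7. In Thbs2, for instance, the summits were at coding positions 407 and 414 in shCTR and 484 and 464 in shMettl14. In Ccn5 they were 380 and 354 nt past the stop codon in shCTR and 406 and 412 nt in shMettl14. The clusters at the end of the Ccn2 coding sequence and in the Thbs1 3′ UTR overlapped. In Thbs1 exon 3 the shMettl14 lists also had a summit with fewer fragments upstream of the shCTR ones, at coding positions 332 (62 fragments) and 322 (41 fragments), and only 1 summit of a list entered.

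Over the 1585 regions with 1 summit in each list the median offset was 24.5 nt, and 87.6% lay later in shMettl14. Both shMettl14 summits lay past both shCTR summits in 60.4% of them and before both in 1.83%. The median was 24 nt on the plus strand and 25 nt on the minus strand, both measured towards the 3′ end of the transcript. By list the median distance from the mean of the 4 was -4.25 nt in shCTR A, -20.25 nt in shCTR B, 16.75 nt in shMettl14 A and 8.75 nt in shMettl14 B. The order followed the shortest interval of the lists, 141, 170, 97 and 112 bp, from earliest in the list with the longest to latest in the list with the shortest. The lists thus differed in a property of the calls that moved with the groups, and its part in the offset was not tested.

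**Figure D5:**
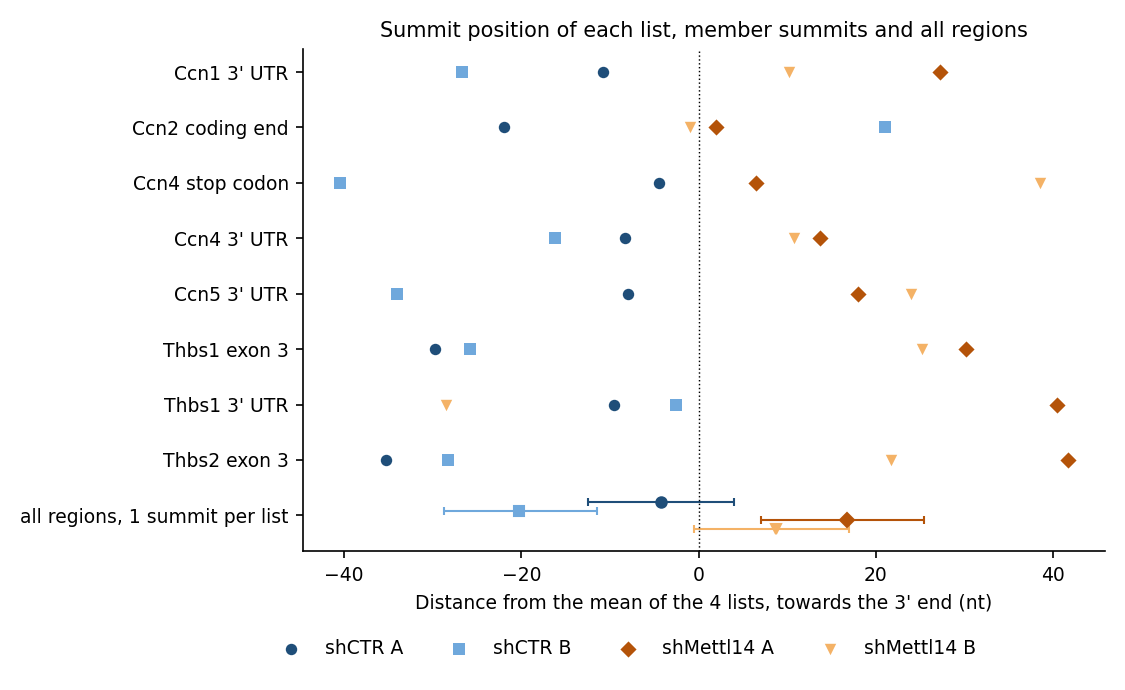
Position of the summit with most fragments of each list relative to the mean of the 4 lists, in nt towards the 3′ end of the transcript, for the 8 clusters and, in the bottom row, the median and quartiles over 1585 regions with 1 summit per list. The shMettl14 summits lie to the right of both shCTR summits in 6 of the 8 clusters.

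Genes that share the biology of this family were counted next, from lists of names. The counts of genes with a summit stand beside the 23.8% of coding genes with one in any list. For genes with a region in all 4 lists, a stricter rule, no share over all genes was computed. Of the close relatives Ccn6, Thbs4 and Comp, 0 of 3 had a summit in any list. Of 17 other matricellular genes 5 had one, and 3 had a region in all 4 lists. These were Tnc, which encodes tenascin-C, at a mean fold enrichment percentile of 81.9 ± 3.97 (SD over 4 lists), Smoc1 at 33.6 ± 14.4 and Fstl1 at 4.34 ± 4.26.

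Of 15 receptors and partners, 10 had a summit and 8 a region in all 4 lists. The highest were Tgfb2, a growth factor of the TGF-beta family, at 97.4 ± 1.77, the fibronectin receptor subunit Itga5 at 93.5 ± 1.35 and Itgb5 at 89.3 ± 7.25. The thrombospondin receptors Cd36 and Cd47 had no summit in any list. Of 15 genes of the YAP, TAZ and SRF list, 11 had a summit and the same 11 a region in all 4 lists, led by Tgfb2, the YAP kinase Lats2 at 95.0 ± 1.81 and Amotl2 at 93.2 ± 2.92. In none of these gene lists did a region pass an adjusted p of 0.05 with limma in either direction for rank, fragments or background, and for rank 0 of 3, 0 of 10 and 0 of 17 regions passed an unadjusted p of 0.05, where 4.93% of all did. For fragments 0, 1 (Itgb1) and 0 passed it, where 4.44% of all did, and for background 0, 1 (Cacna2d1) and 1 (Ajuba), where 5.21% did.

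Finally, for each gene the region with the most similar normal scores over the 4 lists was sought among 4238 regions of other genes. The nearest to Ccn1 was in Mdm4, at a distance of 0.0852, with 59 regions within a distance of 0.5, the most of these genes. For Ccn2 it was in Jcad (0.157), for Ccn4 in Zfp322a (0.224), for Ccn5 in Fat1 (0.216), for Thbs1 in Cemip (0.189) and for Thbs2 in Rrp36 (0.252). Within a distance of 0.5 lay 16 regions for Ccn2, 11 for Ccn4, 6 for Ccn5, 37 for Thbs1 and 31 for Thbs2. Likeness over only 4 lists is a description of these lists.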

How the data were processed

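m6A-RIP-seq was performed on 4 IP and 4 input samples, and groups and letters came from the titles. Per the labels and methods, the authors aligned reads to GRCm38 (mm10) with STAR, selected those mapping uniquely (SAMtools), and found peaks of every IP over its input with MACS2, and versions and options are not given in the sources used here. The deposited lists give the fold enrichment (a ratio with 1 added to both sides), −log10 of the p-value, −log10 of the q-value, a score (not used here) and the summit offset. The authors also deposited intervals shared by the replicates of each shRNA.

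IP fragments (pileup) and local background were solved from fold enrichment and p-value, and a whole number matched 100% of summits (−log10 p off by at most 0.000151). Shortest interval and background differ between lists, so levels were compared as percentiles within a list. Regions were compared with limma 3.58.1 (R 4.3.3; lmFit, eBayes, two-sided, no replicate block) on normal scores of rank, and on log2 fragments and log2 background scaled by the median ratio, with Benjamini-Hochberg adjustment over 4929 regions. Summits were placed on the coding transcript with the longest coding sequence, and percentiles run over all summits of a list. Coding sequences were aligned as protein with Biopython 1.88 (BLOSUM62, gap costs -11 and -1). Scripts were tested on simulated data. Python 3.11.15, scipy 1.17.1 and pandas 2.3.3 were used.

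The genes and lists were chosen with earlier results of these data known. Named were all 8 genes, the relatives Ccn6, Thbs4 and Comp, genes of the other lists with an adjusted p under 0.05 or otherwise the 3 with the highest mean percentile, and the nearest gene to each member. Cd36, Cd47, Itgb1, Cacna2d1 and Ajuba were named after their values were seen. Letters A and B were not taken as pairs. Alternatives were other ranked measures, scalings, thresholds, merge overlaps, windows, Fisher's exact test, and each list left out.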

Additional observations from a re-analysis of the deposited data

How the results depend on the processing

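Of 167 recomputed values 140 kept their sign, 71 of 83 with every list kept and 69 of 84 with 1 list left out. Those with the letters A and B as a replicate block kept it by construction, since the block cannot alter a change. No region of these genes passed an adjusted p of 0.05 in the 83 values with every list kept (smallest 0.811, limma with the replicate block). The difference in number of summits changed sign with distinct intervals (-0.5) and ran from -1 to 7 with 1 list left out. With equal numbers of top summits per list 1 region, in Ccn1, was in shCTR only, and with 1 list left out 0 to 2 regions (Ccn1, Thbs1) were in 1 group only. The stop codon share changed sign within 100 nt (-20.4) and 400 nt (-2.54) and ran from -0.57 to 8.04 points with 1 list left out.

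The change in rank turned negative for Ccn5 (-0.18), Thbs1 exon 3 (-0.28) and the Thbs1 last exon (-0.29) when -log10 p was ranked, and when fragments were ranked (-0.14, -0.064 and -0.14). With equal numbers of top summits it was -0.072 for Thbs1 exon 3 and -0.049 for its last exon, and the Ccn5 region was then not in all 4 lists. Fisher's exact test gave -0.15 for Ccn1, -0.15 for Ccn5, -0.23 for Thbs1 exon 3 and -0.25 for its last exon, but on the log2 scale of summed fragments, which is another quantity than rank.

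With 1 list left out, the change in rank ran from 0.0062 to 0.60 for Ccn1, from -1.10 to -0.087 for Ccn4, from 0.42 to 0.90 for Thbs2, from -0.68 to 0.43 for Ccn2, from -0.14 to 0.54 for Ccn5, from -0.36 to 0.55 for Thbs1 exon 3 and from -0.32 to 0.49 for its last exon. That in fragments ran from -0.39 to 0.031 for Ccn1, from -0.45 to 0.0076 for Ccn4, from -0.40 to 0.13 for Ccn5, from -0.37 to -0.13 for Thbs1 exon 3 and from -0.41 to -0.13 for its last exon. That in background ran from -0.67 to -0.26 for Thbs2, from -0.43 to -0.042 for Ccn1, from -0.18 to 0.064 for Ccn2, from -0.13 to 0.87 for Ccn4, from -0.39 to 0.20 for Ccn5, from -0.21 to 0.0047 for Thbs1 exon 3 and from -0.28 to 0.025 for its last exon. In these fits the lone list of a group was assumed to vary like the other group.

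With the letters A and B as a replicate block, 0 of the 7 regions passed an adjusted p of 0.05 in any measure. The block could alter only standard errors and p-values, because each shRNA had a list of each letter. The changes and the difference in summit number (3) were therefore the same as without it, which is no check of them. Same-lettered lists deviated together only weakly (correlation over regions 0.0795 for rank, 0.22 for fragments, 0.171 for background), and nothing in the labels ties them. The Ccn4 summit offset near the stop codon was -29 nt by fold enrichment. The cause of the sign changes was not tested. With 2 lists per group, changes of the size of those given here, some larger than their standard error, were not detectable after adjustment.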

Other observations

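In these loci 6 summits lay just outside annotated exons and were not counted among the summits of these genes. Those in Ccn1 lay in the exon 2 region, where that of shCTR A was the only summit of its list and that of shMettl14 A the one of higher fold enrichment. In Thbs1 all 4 lists had a summit in the intron before exon 4, an exon of 76 nt, at 19 nt from it in shCTR A, 28 nt in shCTR B, 10 nt in shMettl14 A and 19 nt in shMettl14 B. The intervals reached into exon 4. They held 46, 35, 39 and 29 IP fragments, with a fold enrichment of 5.36, 4.70, 5.96 and 6.35. In Ccn1, shCTR A and shMettl14 A had a summit in the intron before exon 2, 11 and 22 nt from it, with 33 and 22 fragments and a fold enrichment of 3.88 and 4.10.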
